A study of Homo sapiens with 6 samples.

Results

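Complement components, fibrinogen chains and antiproteases that the liver secretes into plasma were followed at the transcript level after knockdown of the RNA helicase DDX17 in A549 cells. The 9 genes were C1R, C1S and SERPING1, C3 and CFB, FGA, FGB and FGG, and SERPINA1, taken from a list of symbols. All 9 were found among the 29476 genes of the count table, and 8 passed the filter on low counts, under which 15615 genes were tested. CFB did not pass, with at most 5 reads in any library. Of the 8 tested genes, 6 were upregulated in siDDX17 cells, with FGB and SERPINA1 changing most, and 0 were downregulated. FGG and SERPING1 did not pass the test. Calls were common in these data, with 24.5% of all tested genes higher and 24.3% lower in siDDX17.

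A549 cells are an established line from a human lung adenocarcinoma. Polyadenylated RNA was sequenced with a strand-specific protocol in 3 siCtrl libraries, from cells given a nontargeting siRNA, and in 3 siDDX17 libraries, from cells given an siRNA against DDX17. Each group rested on 1 siRNA sequence, all cells were transfected with a lipid reagent, and a harvest 48 h after transfection was stated for the RT-qPCR samples. The titles of the controls name siCtrl, whereas their genotype label reads "control plasmid", and the titles and methods were followed here.

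Complement is a cascade of plasma proteases. C1R and C1S are the serine proteases of the C1 complex, which starts the classical pathway, and the serpin C1 inhibitor, encoded by SERPING1, inactivates both. C3 is the component on which all activation routes converge, and factor B (CFB) joins its cleavage product to form the convertase of the alternative pathway. Fibrinogen is assembled from pairs of Aα, Bβ and γ chains, encoded by FGA, FGB and FGG, and is cleaved by thrombin to form the clot. Alpha-1 antitrypsin, the product of SERPINA1, protects the lung from neutrophil elastase. Several of these genes are acute-phase genes, whose transcription in hepatocytes responds to interleukin-6 and depends on C/EBP and HNF1 factors.

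The libraries held between 30658136 and 39182371 counted reads. DDX17 itself was at 177, 184 and 206 CPM in the siCtrl libraries and at 32.1, 30.8 and 30.4 CPM in the siDDX17 libraries, where CPM is the read count scaled to library size after TMM, a normalization that sets the bulk of genes equal. Its log2 fold change was -2.60 ± 0.07 (SE, n = 3 per group, adjusted p = 5.89e-11, edgeR quasi-likelihood test with Benjamini-Hochberg adjustment, as for all adjusted p below). The summed level of 4 epithelial markers (KRT8, KRT18, KRT7, EPCAM) was 8084 to 8876 CPM in siCtrl and 6534 to 7054 CPM in siDDX17, a sum carried by the 3 keratins, while EPCAM was at 0.738 to 1.08 CPM in siCtrl and higher, at 2.21 to 2.28 CPM, in siDDX17. All 6 hepatocyte markers together summed to 1.89 to 2.35 CPM and 2.70 to 3.11 CPM, with APOB and APOC3 at 3 reads or fewer in every library, so that this list stood near the detection limit in both groups. The 4 leukocyte markers found in the table summed to 22.1 to 29.6 CPM and 30.2 to 30.3 CPM, of which CD14 alone made up 20.7 to 28.3 CPM and 28.2 to 28.8 CPM, with PTPRC at 3 reads or fewer. Fibroblast markers summed to at most 3.90 CPM in any library, and endothelial markers to at most 0.413 CPM. The part of these shifts in the results below was not tested, and in bulk RNA fewer cells of a type cannot be told apart from less RNA per cell.

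Per length of transcript, in FPKM (fragments scaled to transcript length and library size), the fibrinogen chains were the most abundant of the 9 transcripts. In siCtrl cells the order was FGG (119 ± 2.12 FPKM, SD, n = 3), FGA (110 ± 6.25), FGB (74.0 ± 1.44), SERPINA1 (35.1 ± 4.43), C3 (21.2 ± 1.28), C1S (17.0 ± 1.09) and C1R (16.3 ± 0.540). FGG and FGA overlapped between libraries, as did C1S and C1R, whereas each other neighbouring pair was separated in all 3 libraries. FGG held rank 457 and FGA rank 495 of the 29242 genes with an FPKM. The transcript lengths behind the FPKM are not given, and the order and ranks in both groups depend on them. In CPM, without scaling to length, FGA stood above FGG in siCtrl, at a mean of 477 against 273. SERPING1, at 0.257 ± 0.0577 FPKM, and CFB, at 0.0233 ± 0.0252 FPKM, lay far below the other 7. Whether A549 cells express CFB cannot be read from these counts, for a reason given with that gene.

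**Figure D1:**
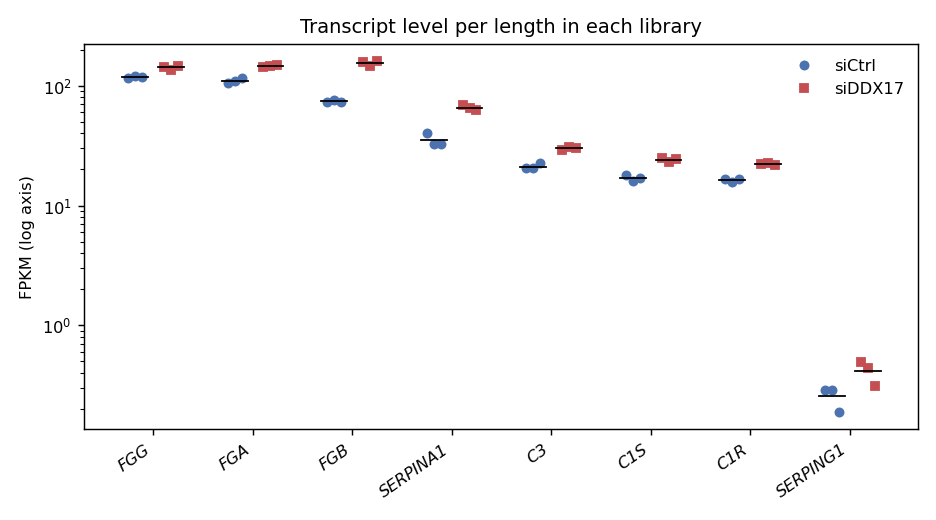
FPKM of 8 of the genes (log axis) in the 3 siCtrl libraries (blue circles) and the 3 siDDX17 libraries (red squares), with a black line at each group mean. FGB lay below FGA and FGG in siCtrl, at 74.0 FPKM, and overlapped FGA in siDDX17, and SERPING1 lay below 0.5 FPKM in all 6 libraries. CFB is not drawn because it was listed at 0 in 2 libraries.

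In siDDX17 cells the order at the top was FGB (155 ± 6.44 FPKM), FGA (147 ± 3.55) and FGG (142 ± 5.08), and each of these neighbours overlapped. With the canonical transcript lengths given below, FGB would not come first. SERPINA1 followed at 65.6 ± 2.97 FPKM, and then C3 at 30.3 ± 0.924, C1S at 24.2 ± 0.928 and C1R at 22.2 ± 0.511, with no overlap between neighbours. FGB rose from rank 735 to rank 364 of all genes, SERPINA1 from 1532 to 880 and C3 from 2321 to 1788. FPKM values were not rescaled between libraries, so the comparison between groups rests on the counts below.

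The initiating proteases of the classical pathway rose together. C1R, the protease that activates itself and then C1S, was at 49.2, 48.6 and 50.3 CPM in siCtrl and at 61.7, 63.8 and 59.5 CPM in siDDX17. C1S, which cleaves C4 and C2, was at 71.0, 65.4 and 67.9 CPM in siCtrl and at 91.6, 86.1 and 88.6 CPM in siDDX17. Every siDDX17 library lay above every siCtrl library for both genes. The log2 fold change was 0.32 ± 0.06 for C1R (SE, n = 3 per group, adjusted p = 0.00037) and 0.38 ± 0.06 for C1S (adjusted p = 9.93e-05). Within a library the log2 ratio of C1R to C1S counts was -0.46 ± 0.06 (SD, n = 3) in siCtrl and -0.53 ± 0.08 in siDDX17, and the groups overlapped (difference -0.06, exact two-sided permutation test, p = 0.2). The smallest p that this test allows with 3 against 3 libraries is 0.1, so it could not pass.

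These 2 genes are neighbours on chromosome 12, C1S at chr12:6988259-7071032 on the plus strand and C1R at chr12:7080214-7092540 on the minus strand (GRCh38, GENCODE release 44), with 9181 bases between them. Of the exonic bases of the canonical C1R transcript, 25.2% also belong to exons of C1RL, the next gene on the same strand, so the counts of C1R and C1RL can be told apart only in part. C1RL, a C1R-like protease, was at 17.4 to 21.1 CPM in siCtrl and 25.0 to 26.1 CPM in siDDX17 (log2 fold change 0.40 ± 0.08, adjusted p = 0.000998).

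SERPING1, the inhibitor of both proteases, was counted with few reads. It had 26, 23 and 19 reads in the siCtrl libraries and 47, 40 and 29 reads in the siDDX17 libraries, or 0.768, 0.804 and 0.507 CPM against 1.22, 1.10 and 0.753 CPM. The lowest siDDX17 library lay below the highest siCtrl library. Its log2 fold change of 0.58 had a 95% interval from -0.02 to 1.17 (adjusted p = 0.101), which holds both no change and a change of more than 1 on the log2 scale. On the deposited FPKM values it passed with limma, at a log2 fold change of 0.17 with 1 FPKM added and of 0.52 with 0.1 FPKM added. The log2 ratio of C1S to SERPING1 counts was 6.62 ± 0.37 in siCtrl and 6.45 ± 0.35 in siDDX17 (SD, n = 3, exact two-sided permutation test, p = 0.5), and the groups overlapped. With 3 libraries per group this test could not pass either.

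C3, at chr19:6677704-6730562 on the minus strand, had the highest FPKM of the 5 complement genes in both groups. It was at 115, 120 and 130 CPM in siCtrl and at 154, 165 and 158 CPM in siDDX17, without overlap. The log2 fold change was 0.39 ± 0.06 (SE, adjusted p = 0.000166), or a fold change of 1.31 with a 95% interval from 1.19 to 1.43. Its size was close to that of C1S and C1R, and the intervals of the 3 genes overlapped.

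CFB, the partner of C3 in the alternative convertase, had 5, 2 and 0 reads in siCtrl and 1, 0 and 1 in siDDX17, too few for a test or a fold change. CFB lies at chr6:31945650-31952086 on the plus strand, and 90.8% of the exonic bases of its canonical transcript are shared with a readthrough gene (ENSG00000244255, named XXbac-BPG116M5.17 in the tables) that joins C2 to CFB on the same strand. The readthrough entry had 127, 107 and 158 reads in siCtrl and 136, 123 and 127 in siDDX17. Reads in these shared exons cannot be assigned to CFB or to the readthrough gene from the tables, and the level of CFB is uncertain for that reason. The readthrough entry itself had a log2 fold change of -0.20 ± 0.13 and did not pass the test (adjusted p = 0.209).

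**Figure D2:**
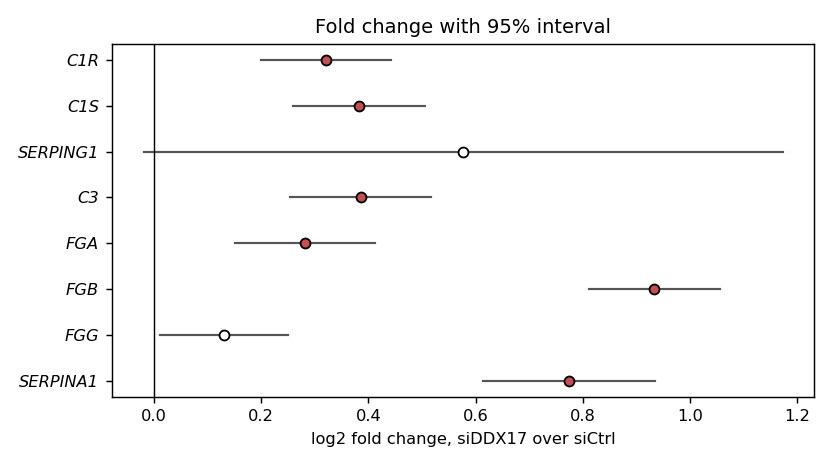
Log2 fold change of siDDX17 over siCtrl for the 8 tested genes, with 95% intervals from the edgeR fit; filled red points passed at an adjusted p under 0.05 and open points did not. FGB (0.93) and SERPINA1 (0.77) stand to the right of the other genes that passed, which lie between 0.28 and 0.39.

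The fibrinogen chains did not respond equally, although their genes lie side by side within 49957 bases of chromosome 4. FGB, which encodes the Bβ chain and is transcribed on the plus strand at chr4:154563011-154572807, was at 153, 167 and 159 CPM in siCtrl and at 310, 294 and 311 CPM in siDDX17. FGA, for the Aα chain, on the minus strand at chr4:154583126-154590742, was at 444, 480 and 506 CPM in siCtrl and at 564, 588 and 586 CPM in siDDX17. FGG, for the γ chain, on the minus strand at chr4:154604134-154612967, was at 262, 284 and 273 CPM in siCtrl and at 303, 290 and 303 CPM in siDDX17. All 3 genes had every siDDX17 library above every siCtrl library, FGG by the narrowest margin.

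FGB rose by a log2 fold change of 0.93 ± 0.06 (SE, n = 3 per group, adjusted p = 3.61e-08), or 1.91-fold with a 95% interval from 1.75 to 2.08. FGA rose by 0.28 ± 0.06 (adjusted p = 0.00167). FGG had a log2 fold change of 0.13 ± 0.06 with a 95% interval from 0.01 to 0.25 and did not pass (adjusted p = 0.0666). FGG passed under 5 alternatives, with log2 fold changes of 0.14 when at least 10 counts were required in every library, 0.16 with upper quartile scaling, 0.25 with scaling by library size alone and 0.26 in both fits on FPKM.

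The ratio of 2 genes within 1 library needs no scaling between libraries, and showed the same unequal response. The log2 ratio of FGB to FGG counts was -0.77, -0.77 and -0.78 in the siCtrl libraries and 0.03, 0.02 and 0.04 in the siDDX17 libraries. The spread within each group was below 0.01 (SD), and the groups differed by 0.80, a change of the ratio by 1.74-fold. The log2 ratio of FGA to FGB was 1.53, 1.53 and 1.67 in siCtrl and 0.86, 1.0 and 0.91 in siDDX17, so that it fell by 0.65. The log2 ratio of FGA to FGG moved least, from 0.80 ± 0.07 to 0.96 ± 0.06 (SD), also without overlap. The exact two-sided permutation test gave p = 0.1 for each of the 3 ratios, the smallest value that 3 against 3 libraries allow, and 0.233 after Benjamini-Hochberg adjustment over the 7 ratios computed, so these ratios could not pass the test.

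Expressed per length, the Bβ transcript was the scarcest of the chains in siCtrl. It made up 24.4% ± 0.542 of the summed FPKM of the 3 chains in siCtrl (SD, n = 3) and 34.9% ± 0.598 in siDDX17. The share of FGG went from 39.2% ± 0.670 to 32.1% ± 0.420, and that of FGA from 36.4% ± 1.21 to 33.1% ± 1.01. In the deposited FPKM the 3 chains were thus nearly equal in the siDDX17 libraries. The transcript lengths behind these FPKM are not given, and the near-equality depends on them. In CPM, without scaling to length, the siDDX17 means were 579 for FGA, 305 for FGB and 299 for FGG. The canonical transcripts of FGA, FGB and FGG hold 2209, 3641 and 2072 exonic bases. The FPKM put FGB level with FGA at a lower CPM, so they rest on a shorter length for FGB than for FGA. The canonical lengths run the other way. Per canonical base FGB would remain the scarcest chain in siDDX17, so the near-equality holds only for the lengths used in the deposited FPKM. The summed FPKM of the chains was 303 ± 8.20 in siCtrl and 443 ± 12.2 in siDDX17. These FPKM were not rescaled between libraries. On counts scaled by TMM, the fold changes were 1.22 for FGA, 1.91 for FGB and 1.09 for FGG.

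**Figure D3:**
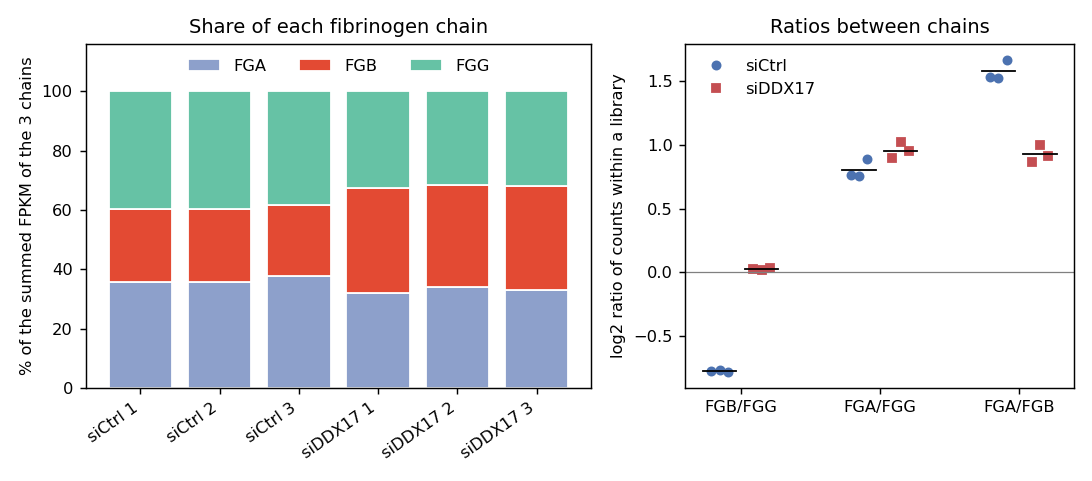
Left, the share of FGA, FGB and FGG in the summed FPKM of the 3 chains in each of the 6 libraries (% from 0 to 100); right, the log2 ratio of the counts of 2 chains within each library, with a black line at each group mean. The FGB share was 24.4% on average in siCtrl and 34.9% in siDDX17, and the ratio of FGB to FGG was the tightest of the 3, with no overlap between the groups.

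The sequences upstream of the fibrinogen genes are shown because the 3 genes share a locus and differed in response. They come from RefSeq windows on GRCh38.p14, read 5' to 3' on the strand of the gene, and the table held windows for 6 of the 9 genes (C1R, CFB, FGA, FGB, FGG and SERPINA1). For FGB the 250 bases before the start at chr4:154562761-154563010 (plus strand) and for FGA those at chr4:154590743-154590992 (minus strand) are given. Both windows are free of exons in GENCODE. For FGG and SERPINA1, whose windows run through exons of other transcripts, 30 bases around 1 match are given, at chr4:154612799-154612828 and chr14:94388661-94388690, both on the minus strand. Capitals mark matches on either strand to the motifs searched, which were CTGGGAA (an interleukin-6 response element), TTCNNNGAA (GAS, a STAT site), TTNNGNAA (C/EBP), GTTAAT (part of the HNF1 site) and an NF-kB site. No 2 of the printed matches overlap.
FGB: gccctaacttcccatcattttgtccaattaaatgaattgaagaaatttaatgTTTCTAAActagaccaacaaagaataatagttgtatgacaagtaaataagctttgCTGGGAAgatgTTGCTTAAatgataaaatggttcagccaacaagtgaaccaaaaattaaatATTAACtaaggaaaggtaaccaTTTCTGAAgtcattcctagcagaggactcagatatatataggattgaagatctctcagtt
FGA: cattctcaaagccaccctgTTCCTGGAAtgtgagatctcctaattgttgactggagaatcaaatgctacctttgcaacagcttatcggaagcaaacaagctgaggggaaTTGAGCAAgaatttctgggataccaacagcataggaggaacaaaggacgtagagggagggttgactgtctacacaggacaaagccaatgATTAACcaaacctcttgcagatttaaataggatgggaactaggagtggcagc
FGG: gtgtgcaaaatCTGGGAAcctgacagtata
SERPINA1: ggggtgaccttgGTTAATattcaccagcag

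Counted back from the start, with -1 as the last base before it, the FGB window held the interleukin-6 element from -143 to -137, C/EBP matches starting at -198, -132 and -60, and an HNF1 match from -82 to -77. The FGA window held a GAS match from -231 to -223, a C/EBP match from -141 to -134 and an HNF1 match from -52 to -47. The whole FGG window held the interleukin-6 element, from -161 to -155, and 1 C/EBP match from -32 to -25. FGG was the member of the trio with no HNF1 match in its window. Of 27305 genes with a window, taking 1 window each, 9.30% held CTGGGAA, 6.78% TTCNNNGAA, 33.6% TTNNGNAA, 6.22% GTTAAT and 1.73% the NF-kB site, which no member's window held. The second window of SERPINA1 and the second window of C1R held an HNF1 match, and the CFB window held a GAS match alone. A match of letters is a description of these windows and not a measured binding site.

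SERPINA1, at chr14:94376747-94390693 on the minus strand, was the gene with the second highest increase. It was at 174, 147 and 143 CPM in siCtrl and at 276, 268 and 250 CPM in siDDX17. The first siCtrl library lay above the other controls but below every siDDX17 library. The log2 fold change was 0.77 ± 0.07 (SE, n = 3 per group, adjusted p = 2.1e-06), or 1.71-fold with a 95% interval from 1.53 to 1.91, and it was 0.86 without the first siCtrl library.

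SERPINA1 belongs to a cluster of serpin genes on the same chromosome, whose other members were looked up after the values were known. Of the 7 other SERPINA entries in the table, 5 were tested, 4 were upregulated and 0 downregulated. Of all tested genes, 24.5% were higher and 24.3% lower. SERPINA6, corticosteroid-binding globulin, was at 10.0, 11.6 and 8.70 CPM in siCtrl and at 19.2, 21.2 and 21.2 CPM in siDDX17 (log2 fold change 1.03 ± 0.10, adjusted p = 2.58e-06). SERPINA3, alpha-1 antichymotrypsin, was at 63.7, 66.7 and 74.5 CPM in siCtrl and at 119, 126 and 122 CPM in siDDX17 (0.84 ± 0.06, adjusted p = 2.88e-07). These reads were counted for the entry ENSG00000273259, which GENCODE now describes as a readthrough gene, while the entry ENSG00000196136 had 1 read in each siCtrl library and 9 to 14 reads in the siDDX17 libraries. SERPINA10 and SERPINA4 also passed but had at most 22 reads in any library, and SERPINA5 did not pass (log2 fold change -0.52, adjusted p = 0.164).

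Among all tested genes, 24.5% were called higher and 24.3% lower in siDDX17 cells at an adjusted p under 0.05, against 6 and 0 of the 8 tested members. Among the genes averaging at least 5 log2 CPM, to which 7 of the 8 belong, 23.9% were higher and 34.9% lower, against 6 and 0 of 7. Every siDDX17 library lay above every siCtrl library for 7 of the 8 members, FGG included, and for 28.8% of all tested genes. The changes were moderate in size. With a log2 fold change over 1 required, 0 members and 4.65% of all genes were called higher. With an unadjusted p under 0.01 and a fold change over 1.5, the limits of the study's methods, FGB and SERPINA1 were called higher, as were 11% of all genes. The median log2 fold change was 0.38 over the 8 members and 0.01 over all tested genes. Together the 9 genes took 0.125% ± 0.00238 of all counted reads in siCtrl and 0.183% ± 0.00229 in siDDX17 (SD, n = 3). Fibrinogen reads made up 69.7% and 67.3% of these. The shares of all counted reads were not scaled by TMM. With library size alone as the scaling, the all-gene median log2 fold change was 0.13.

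The rest of the complement system was mostly below the filter on low counts or moved in both directions. Over all tested genes, 24.5% were higher and 24.3% lower. Of the 15 listed genes of the classical and lectin pathways, 2 were tested, C1RL and C2, and both were upregulated. C2, the substrate of C1S, had 5, 7 and 5 reads in siCtrl and 16, 15 and 16 in siDDX17 (log2 fold change 1.26 ± 0.38, adjusted p = 0.0142), a call that ended with DESeq2 (adjusted p = 0.114) and without the first or the third siCtrl library (0.0507 and 0.069). The readthrough gene described with CFB also takes in C2, and its entry held more reads than C2 in every library. How reads were divided between them is not known, so the level and the change of C2 are uncertain. Of 3 tested genes of the alternative and terminal pathways, 1 was downregulated and 0 upregulated. This was C5, the precursor of the C5a anaphylatoxin, at 17.6 to 21.5 CPM in siCtrl and 12.6 to 14.1 CPM in siDDX17 (-0.55 ± 0.09, adjusted p = 0.000192). Factor D (CFD), the protease that cleaves factor B, had a log2 fold change of 0.13 and did not pass (adjusted p = 0.238).

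Of 13 tested complement regulators and receptors, 4 were upregulated and 3 downregulated, shares near those over all tested genes (24.5% and 24.3%). Clusterin (CLU), a fluid-phase inhibitor of the terminal complex, was at 463, 486 and 493 CPM in siCtrl and at 686, 749 and 714 CPM in siDDX17 (0.57 ± 0.06, adjusted p = 3.08e-06). CD59, the membrane-bound inhibitor of the same complex, went the other way, from 260, 319 and 340 CPM to 225, 213 and 208 CPM (-0.51 ± 0.08, adjusted p = 0.000226). C5AR1, a receptor for C5a, fell from 3.53 to 6.44 CPM in siCtrl to 1.45 to 2.06 CPM in siDDX17 (-1.58 ± 0.21, adjusted p = 4.21e-05). CFHR3, a relative of factor H, passed at 0.48 ± 0.17 (adjusted p = 0.0271), and lost the call with DESeq2 and in 4 of the 6 fits that left out a library.

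Of 13 tested coagulation genes, 8 were upregulated and 3 downregulated, beside 24.5% and 24.3% of all tested genes. FGL1, a secreted protein with a fibrinogen-like domain, was at 39.7, 36.8 and 33.7 CPM in siCtrl and at 78.4, 73.4 and 76.9 CPM in siDDX17 (1.05 ± 0.07, adjusted p = 5.41e-08). Thrombomodulin (THBD), the thrombin receptor that turns thrombin toward protein C, rose by 1.03 ± 0.07 (adjusted p = 1.36e-07), and PROC, which encodes protein C, rose by 1.25 ± 0.21 (adjusted p = 0.00029). PROC lay between 0.909 and 1.47 CPM in siCtrl and between 2.41 and 3.35 CPM in siDDX17. Both anticoagulant and procoagulant genes were among those that rose. The procoagulant genes that rose, named after their values were seen, were tissue factor (F3, 1.10 ± 0.24, adjusted p = 0.0021), factor VII (F7, 0.93 ± 0.22, adjusted p = 0.00361) and prothrombin (F2, 0.56 ± 0.10, adjusted p = 0.000349). F3 and F7 were counted with few reads, at means of 0.667 and 0.947 CPM in siCtrl and 1.45 and 1.81 CPM in siDDX17. TFPI, the inhibitor of the tissue factor pathway, also rose by 0.33 ± 0.07 (adjusted p = 0.000963). F8, coagulation factor VIII, fell from 8.15 to 9.93 CPM to 4.23 to 4.83 CPM (-0.95 ± 0.11, adjusted p = 1.39e-05). Factor XII (F12, -0.46 ± 0.09, adjusted p = 0.00118) and the B chain of factor XIII (F13B, -1.13 ± 0.32, adjusted p = 0.0102) also fell. Both were named after their values were seen, and F13B lay at means of 0.774 CPM in siCtrl and 0.353 CPM in siDDX17.

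In fibrinolysis, 2 of 8 tested genes were upregulated and 3 downregulated, again beside 24.5% and 24.3% of all tested genes. The activator urokinase (PLAU) and its receptor (PLAUR) were lower in siDDX17, with log2 fold changes of -0.44 ± 0.09 (adjusted p = 0.00118) and -0.61 ± 0.08 (adjusted p = 5.18e-05). CPB2, the carboxypeptidase that protects fibrin from lysis, rose by 1.02 ± 0.15 (adjusted p = 8.95e-05), with 1.77 to 2.08 CPM in siCtrl and 3.66 to 4.49 CPM in siDDX17.

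Among other acute-phase and liver plasma proteins, 8 of 17 tested genes were upregulated and 2 downregulated, beside 24.5% and 24.3% of all tested genes. Beside SERPINA3 and SERPINA6, ceruloplasmin (CP), the copper-carrying ferroxidase, was at 96.7, 87.7 and 85.8 CPM in siCtrl and at 164, 147 and 155 CPM in siDDX17 (0.78 ± 0.06, adjusted p = 4.96e-07). Serum amyloid A1 (SAA1) rose from 3.04 to 5.34 CPM to 6.44 to 7.54 CPM (0.72 ± 0.16, adjusted p = 0.00257). SAA1 has near-identical paralogs, so its count is uncertain. The 2 genes that fell, named after their values were seen, were TF (-0.34 ± 0.10, adjusted p = 0.0107) and AHSG (-0.61 ± 0.20, adjusted p = 0.0216). The other 7 did not pass, among them haptoglobin (HP, 0.06, adjusted p = 0.752) and LBP (-0.13, adjusted p = 0.188), also named afterwards.

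**Figure D4:**
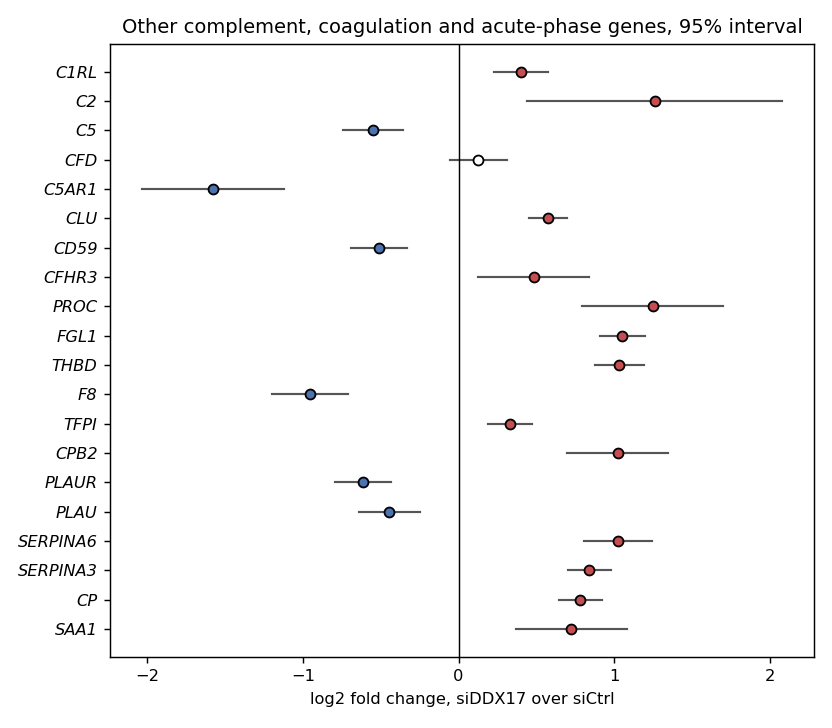
Log2 fold change of siDDX17 over siCtrl with 95% intervals for genes of the complement, coagulation, fibrinolysis and acute-phase lists. The genes drawn were named by the rule on fold change and level given in the processing section. Red points were higher and blue points lower at an adjusted p under 0.05, and the open point (CFD) did not pass. Changes went both ways, from -1.58 for C5AR1 to 1.26 for C2, whose interval is the widest on the positive side.

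Over all 9 lists, which also cover the regulators below, 96 of 148 genes were tested, 35 were upregulated, 25 downregulated and 36 did not pass. Their median log2 fold change was 0.05. Calls in both directions were also made over all tested genes, at 24.5% higher and 24.3% lower.

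Genes that drive acute-phase transcription in the liver were themselves altered in opposite directions. Of 15 tested liver transcription factors, 6 were upregulated and 5 downregulated, beside 24.5% and 24.3% of all tested genes. CEBPD, a C/EBP factor induced in the acute phase, was at 15.9, 16.9 and 19.3 CPM in siCtrl and at 47.1, 50.2 and 51.7 CPM in siDDX17 (1.51 ± 0.08, adjusted p = 1.08e-08). HNF4A, a nuclear receptor of hepatocyte identity, was at 23.1, 27.7 and 28.3 CPM in siCtrl and at 51.7, 56.1 and 54.7 CPM in siDDX17 (1.04 ± 0.08, adjusted p = 2.36e-07). ONECUT2 rose from 1.68 to 2.73 CPM to 4.13 to 4.31 CPM (0.97 ± 0.16, adjusted p = 0.000303).

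CEBPB, the C/EBP factor known as NF-IL6, was by contrast at 360, 302 and 265 CPM in siCtrl and at 204, 210 and 212 CPM in siDDX17 (-0.57 ± 0.09, adjusted p = 0.000139). CEBPG had the same log2 fold change of -0.57 but a wide spread in siCtrl (68.1, 41.9 and 34.9 CPM), and its call (adjusted p = 0.0159) ended with DESeq2 (adjusted p = 0.12), with library size scaling, in both FPKM fits and without the second or the third siDDX17 library. FOXA2 was at 56.1 to 59.8 CPM in siCtrl and 57.4 to 63.1 CPM in siDDX17 and did not pass (adjusted p = 0.416).

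Of 13 tested interleukin-6 signalling genes, 7 were downregulated and 3 upregulated, beside 24.3% and 24.5% of all tested genes. Among genes averaging at least 5 log2 CPM, 34.9% were lower and 23.9% higher. IL6ST, the shared receptor chain gp130, was at 110, 97.4 and 94.9 CPM in siCtrl and at 52.8, 50.1 and 52.4 CPM in siDDX17 (-0.96 ± 0.07, adjusted p = 9.45e-08). IL6R, the chain that binds interleukin-6 itself, was at 19.4, 23.0 and 27.4 CPM in siCtrl and at 15.5, 16.3 and 16.7 CPM in siDDX17 (-0.53 ± 0.11, adjusted p = 0.00116). Both receptor chains were lower in every siDDX17 library than in every siCtrl library.

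The kinase TYK2 fell by 0.75 ± 0.07 on the log2 scale (adjusted p = 1.29e-06), and OSMR, the oncostatin M receptor, fell by 0.23 ± 0.06 (adjusted p = 0.00485), a call that ended with library size scaling and in both FPKM fits. LIFR, a partner of gp130, and the kinase JAK1 rose by 0.55 ± 0.10 (adjusted p = 0.00051) and 0.30 ± 0.05 (adjusted p = 0.000541). STAT3, the transcription factor that carries the signal to the nucleus, was the remaining gene that rose and was named after its values were seen (0.31 ± 0.05, adjusted p = 0.000429). The remaining genes that fell, likewise named afterwards, were SOCS3 (-0.39 ± 0.07, adjusted p = 0.000364), LIF (-0.40 ± 0.06, adjusted p = 0.000209) and PIAS3 (-0.20 ± 0.06, adjusted p = 0.012).

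**Figure D5:**
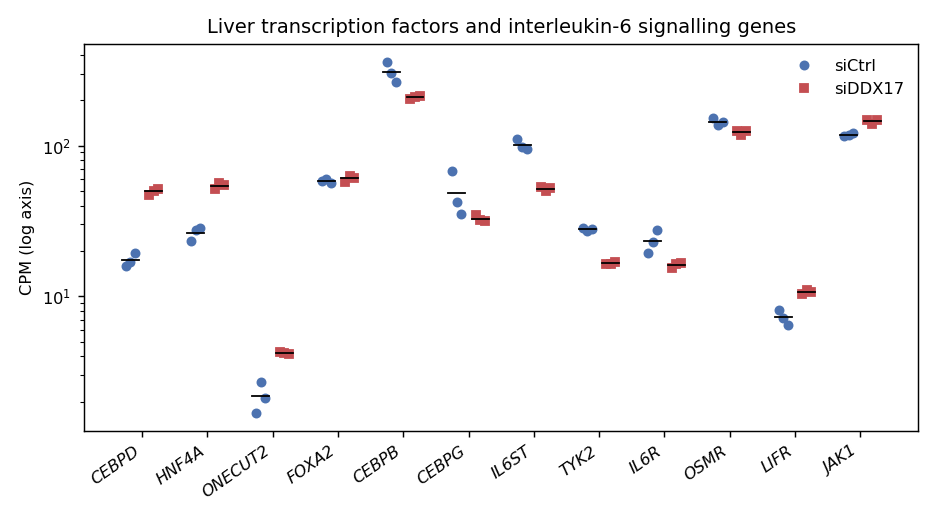
CPM (log axis) of liver transcription factors and interleukin-6 signalling genes in the 3 siCtrl libraries (blue circles) and the 3 siDDX17 libraries (red squares), with a black line at each group mean. CEBPD and HNF4A were higher and CEBPB, IL6ST and TYK2 lower in every siDDX17 library than in every siCtrl library, and CEBPG was spread widest among the controls.

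The receptors and coat proteins that carry secreted cargo out of the endoplasmic reticulum mostly did not pass the test. Of 12 tested genes, 2 were upregulated, 1 was downregulated and 9 did not pass, where 24.5% of all tested genes were higher and 24.3% lower. LMAN1, a cargo receptor for coagulation factors and alpha-1 antitrypsin, was at 66.3, 56.4 and 58.1 CPM in siCtrl and at 69.2, 67.8 and 73.5 CPM in siDDX17 (0.22 ± 0.07, adjusted p = 0.0168), a call that ended in 3 of the 6 fits that left out a library. SEC24C, a subunit of the COPII coat, rose by 0.38 ± 0.05 (adjusted p = 5.79e-05). EDEM1, which directs misfolded glycoproteins to degradation, fell by 0.64 ± 0.12 (adjusted p = 0.000588), from 72.2, 50.0 and 49.2 CPM to 35.1, 36.0 and 38.8 CPM. The first siCtrl library was the highest of the controls for both LMAN1 and EDEM1. The abundant receptors LMAN2 (0.06) and SURF4 (0.04) did not pass, with adjusted p of 0.412 and 0.588.

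For each member, the genes with the most similar course over the 6 libraries were those with the smallest Euclidean distance between log2 CPM values centred on their mean, among genes averaging at least 3 log2 CPM. The nearest to FGB were LONP2 (distance 0.0615), CHMP3 (0.0873) and MYO18A (0.0915), and the nearest to SERPINA1 were IVNS1ABP (0.0746), GPC6 (0.0992) and MESDC2 (0.114). C3 was nearest to POLD4 (0.0233), PDLIM2 (0.0559) and TPCN1 (0.0632). C1S was nearest to TCAF1 (0.0447), AFAP1 (0.0514) and TTC7B (0.0518), and C1R to PLD3 (0.0406), BTBD11 (0.0416) and SLC41A3 (0.0426). FGA was nearest to MRPL4 (0.0503), ABR (0.0541) and WDR1 (0.0666), and FGG to NCOA4 (0.029), PDCD2 (0.0567) and STRADB (0.0576). SERPING1, with its few reads, had no gene closer than H19 (0.457), DYM (0.48) and GCC1 (0.486). No member was among the 3 nearest genes of another, and with 6 libraries in 2 groups such closeness is mainly closeness in fold change.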

How the data were processed

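Gene expression in 3 siCtrl and 3 siDDX17 libraries of A549 cells was taken from tables that the authors made. Reads were mapped to GRCh38 with TopHat2, uniquely mapped reads were kept, and the authors deposited raw counts per gene for 29476 genes. They also deposited FPKM values for 29242 genes, normalized to transcript length and library size. The counting program, the annotation release and the use of strand are not given in the sources used here, so overlapping and near-identical genes are uncertain. The methods call the replicates biological.

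Counts were fitted over the whole table with edgeR 4.0.16 in R 4.3.3 (filterByExpr, TMM, glmQLFit and glmQLFTest), and 15615 genes were tested, with Benjamini-Hochberg adjustment over all of them and calls at an adjusted p under 0.05. CPM are counts scaled to the TMM library size, and ratios were log2 of 2 counts, each plus 0.5. At 30658136 to 39182371 counts per library, genes with few reads, such as SERPING1, were measured with wide intervals. FPKM served for levels between genes, with transcript lengths that are not given. Alternatives were DESeq2 1.42.0, other scalings and filters, a fit with replicate number as block, fold limits, limma 3.58.1 on FPKM (log2 after adding 1 or 0.1), and fits without each library.

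The members, the 9 pathway lists and the marker lists were chosen with earlier results of these data known, and no test was made of a list. From each list, up to 4 genes with the largest significant log2 fold change and a mean level of 1 log2 CPM or more, and up to 2 with the highest level were named. A gene that the rule names is not reported here. Named outside this rule were the readthrough entry at CFB, the other SERPINA genes, F2, F3, F7, F12 and F13B. Also outside it were STAT3, SOCS3, LIF, PIAS3, TF, AHSG, HP and LBP. Positions and exon overlaps came from GENCODE release 44, and upstream sequences from RefSeq (GRCh38.p14). The promoter table and the motif search were read with Python 3.11.15, pandas 2.3.3 and numpy 2.4.6, and exact tests were run with scipy 1.17.1.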

Additional observations from a re-analysis of the deposited data

How the results depend on the processing

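The 6 members called higher were the same 6 with DESeq2, RLE scaling, no filter on low counts, the replicate block and each library left out, and all 8 tested members kept a positive log2 fold change under every alternative. FGG passed with upper quartile scaling, library size alone, at least 10 counts in every library and both FPKM fits, and SERPING1 in both FPKM fits. No shared effect of the replicate number was seen, as deviations of same-numbered libraries correlated at 0.00698, 0.0407 and -0.0564. Such values cannot exclude that same-numbered samples were prepared together. With the number as a block 6 members were higher. Scaling by library size alone moved the all-gene median of the log2 fold change to 0.13 and left 2494 genes lower in place of 3798. The fits on log2(FPKM + 1) and log2(FPKM + 0.1) gave 2369 and 2374 lower genes, and 16 lower pathway genes each in place of 25. With an absolute log2 fold change over 1 required, 0 members were higher, 726 genes were higher and 456 lower, and 10 pathway genes were higher and 2 lower. With p under 0.01 and a fold change over 1.5, these numbers were 2 members, 1713 and 1254 genes, and 16 and 8 pathway genes. The difference in the share of reads taken by the members, 0.0585 percentage points, was 0.0631 without the 10 most abundant genes. With each library left out in turn, the group difference in the log2 ratio of C1S to SERPING1 ranged from -0.37 to 0.039. It changed sign without the third siCtrl library, and its exact test could not pass with 3 libraries per group. Over the same fits, the log2 fold change of SURF4 ranged from -0.0016 to 0.062 and changed sign without the second siDDX17 library. The causes were not tested. Of the recomputed log2 fold changes of single genes, 664 kept their direction and side of the threshold, 19 passed newly, 20 no longer passed and 1 reversed. SERPING1 and C2 were counted with at most 47 reads in any library, which limits their precision.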
